A study of Homo sapiens with 197 samples.

Results

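Cyclin-dependent kinases and the small CKS subunits that bind them were delivered one by one to human fibroblasts, and 11 wells of the screen received such a cDNA. They were chosen by their labels, as the lanes whose kinase name begins with CDK or PCTK or is CDC2, CKS1B or CKS2. They make up 6.01% of the kinase wells compared and 5.58% of all lanes. The cells were IMR90, a non-transformed line of human lung fibroblasts, grown in DMEM with serum and infected with retroviruses in six-well plates. Each kinase of the collection carries a myristoylation signal, which directs it to the membrane and is meant to activate it, and 1 well was infected per kinase. RNA was taken 4 days after infection and read with Nanostring, which counts single labelled probes without amplification.

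The 11 wells form 4 groups. The cell-cycle kinases were CDC2 (the older name of CDK1), CDK2 and CDK4. The transcriptional kinases were CDK7 and CDK9. A further group held CDK5 and the related PCTK1, PCTK2 and PCTK3, which RefSeq lists as CDK16, CDK17 and CDK18. CKS1B and CKS2, which are not kinases themselves, made up the last. The other kinase wells received a cDNA of the kinase collection from outside these families. Some of their labels, such as CALM2 and PLAU, do not name a kinase. The 2 IMR90 control lanes used here are labelled as empty vector, and 2 lanes of SW39, a transformed derivative of IMR90, and 6 lanes of RNA mixed from human cell lines were read beside them. The study text also speaks of cells that were not infected, so whether the controls carry the vector is not settled. The HK1 lane was left out, as were 3 second lanes, of PIK3CG, PTK2 and an IMR90 control.

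A cyclin-dependent kinase is inactive until it binds a cyclin. CDK4 with D-type cyclins and CDK2 with cyclins E and A drive a cell through G1 and into S phase by phosphorylating the retinoblastoma protein, and CDC2 with cyclins A and B drives mitosis. CDK7 activates other cyclin-dependent kinases and, as part of the factor TFIIH, phosphorylates RNA polymerase II, while CDK9 releases paused polymerase into elongation. CDK5 acts mostly in neurons with p35 or p39, the PCTK proteins are less well understood relatives, and the CKS proteins help a cyclin-bound kinase to engage phosphorylated substrates. The labels name no cyclin supplied with any of these cDNAs.

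Counts were divided by a lane factor from the housekeeping genes PGK1, TBP and TUBB2A and are given as normalized counts. Of the 58 rows compared, 17 had a median raw count above the negative-control level, which is the mean plus 2 SD of the 8 negative probes of a lane. Only 4 of the 42 tissue-restricted genes were among them, namely ADAM12, ALAS1, ATAD2 and PLCZ1. Total counts ran from 103796 to 295871 per lane in the CDK and CKS wells and from 29629 to 340763 in the others. Each kinase has 1 lane, so the spread between wells includes both technical error and the differences between kinases.

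The label check in this screen is the probe for the tag shared by all the kinases, since no row measures a cyclin-dependent kinase itself. The row that the files name MyrFlag ran from 558 in the PCTK3 well to 842 in the CDK9 well, with a median of 719. The IMR90 controls gave 665 and 714 and the SW39 lanes 2526 and 2841, so this row did not set the infected wells apart from controls. The row named ZBTB33 did. It was read at 8.8 and 18.3 in the controls, 6.2 and 6.9 in SW39 and at least 441 in every CDK and CKS well. The mixed RNA gave 9.5 to 31.7, and the other kinase wells at least 146.8. The paper reports the tag in all kinase infections and saw none in non-infected IMR90 or SW39 cells. Here the row named ZBTB33 had that pattern, and the row named MyrFlag did not. The paper also reports siRNA depletion of DNMT1, ZBTB4 and ZBTB33 mRNA in IMR90 cells. The rows so named gave 12.6 and 14.2, 14.6 and 24.4, and 8.8 and 18.3 in the controls. Whether the names of the rows outside the tissue-restricted set match their probes was not tested, and those names are used here as the files give them.

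The genes ZBTB33 and ZBTB38 encode related proteins that bind methylated CpG. Whether the rows so named measure these transcripts was not tested. As given above, the pattern that the paper reports for the tag was seen in the row named ZBTB33. The row named ZBTB33 had a wider range in fold among the CDK and CKS wells than any other row above background. Its normalized counts were 35633, 34979 and 1615 in the CDK2, CDK4 and CDC2 wells. They were 24004 in the CDK9 well and 441 in the CDK7 well. They were 47151, 25119, 14476 and 9178 in the PCTK1, PCTK3, CDK5 and PCTK2 wells. The CKS2 well gave 9125 and the CKS1B well 5753.

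The wells that carry kinases of like function therefore did not lie together in this row. Whether the row reads the tag, and with it how far each cDNA was expressed, was not tested. CDK9 was 54.5-fold above CDK7, and CDK2 was 22.1-fold above CDC2. Against the median of 22591 in the other kinase wells, the CDK7 well was 51.3-fold lower and the CDC2 well 13.99-fold lower. The CDK7 well was the third lowest of all kinase wells, from 467 raw counts against a lane negative-control level of 20.6, and all 8 other kinase wells with neighbouring sample numbers (61 to 72) were higher, at 5127 to 81449. The CDC2 well was 4.70-fold below the median of its own neighbours, of which 8 of 10 were higher. PCTK1 lay at the opposite end, above all 10 of the same neighbours.

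The row named ZBTB38 followed the same order at both ends, from 275.5 in the CDK7 well and 925 in the CDC2 well to 28430 in the PCTK1 well. The ratio of ZBTB38 to ZBTB33 was 0.515 to 0.721 in the 11 wells, with a median of 0.603. In the other kinase wells it was 0.313 to 0.730, with a median of 0.553. In the IMR90 controls the ratio was 181.8 and 384, because ZBTB38 was at 1591 and 7039 there while ZBTB33 was at the low counts given above. The CDK7 and CDC2 wells were thus below both controls in the row named ZBTB38 and above both in the row named ZBTB33.

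**Figure D1:**
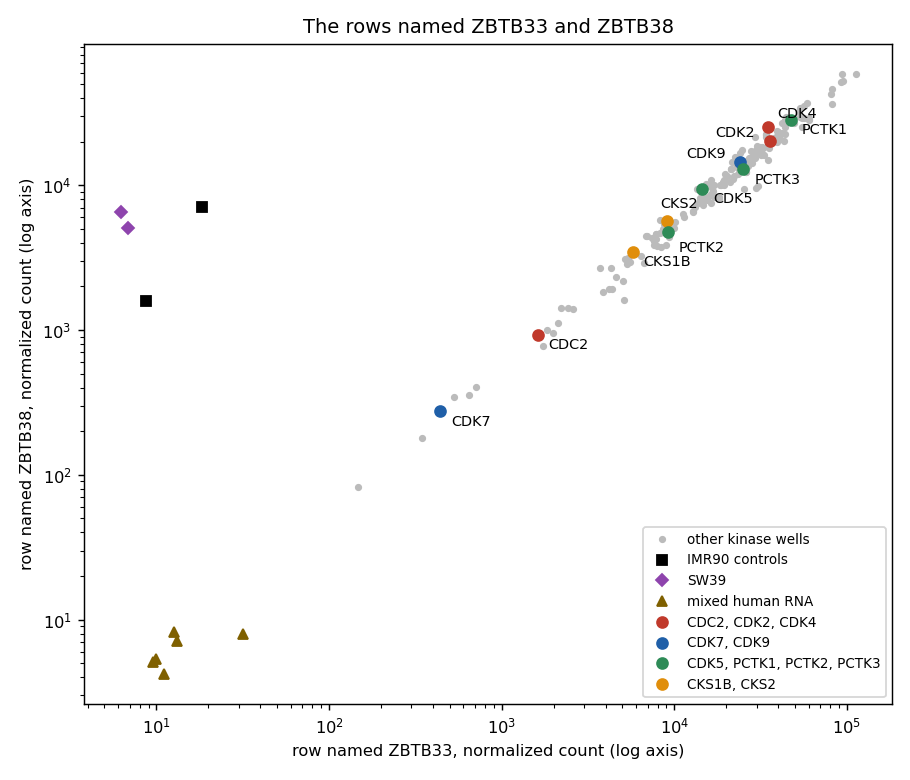
Normalized counts of the row named ZBTB33 (horizontal, log axis) and the row named ZBTB38 (vertical, log axis), with 1 point per lane; coloured points are the 11 CDK and CKS wells. The kinase wells follow 1 line, with CDK7 at 441 and 275.5 near its lower end and PCTK1 at 47151 and 28430 near the upper end, and the IMR90 controls, SW39 and mixed RNA lie off it.

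Taken as a family, the CDK and CKS wells did not differ from the other kinase wells in any row by the test used. edgeR's quasi-likelihood test called 0 of 58 rows after Benjamini-Hochberg adjustment (0% of rows), and 9 rows had an unadjusted p under 0.05. DESeq2 with the same housekeeping factors also called 0, with 8 rows under 0.05 unadjusted, and with its own factors 0 and 16. The smallest adjusted p was 0.218 with edgeR, shared by 6 rows. With DESeq2 it was 0.226 with the housekeeping factors and 0.066 with its own. The 95% interval of the mean difference lay within 2-fold in 54 of 58 rows. It lay within 1.5-fold in 15 of the 17 rows above background, the exceptions being ZBTB33 and ZBTB38. In the 41 rows at background an interval describes counts near the negative controls, not a transcript, and no interval bounds a single kinase. Intervals were taken from the F statistic and are narrower than edgeR's p implies in some rows at background, such as BRDT (edgeR p = 0.908). For ZBTB33 and ZBTB38 the log2 differences were −0.43 (SE 0.42) and −0.31 (SE 0.42). They were −0.30 and −0.17 without CDK7 and −0.67 and −0.54 without PCTK1, and positive with blocks of sample numbers in the model, at 0.12 and 0.16.

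Genes tied to DNA replication were described first, since the cell-cycle kinases act on entry into S phase. The row named for UHRF1, a protein that keeps DNA methylation in place after replication, had a median of 955. It was lowest in the PCTK3 well at 621 and highest in the PCTK2 well at 1063. The IMR90 controls gave 684 and 997 and the SW39 lanes 568 and 708. The other kinase wells ran from 470 to 1129 with a median of 792. The CDK and CKS wells therefore lay inside the range of the others. The log2 difference was 0.19 (SE 0.084), with an edgeR adjusted p of 0.218.

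ATAD2, a chromatin factor bound up with proliferation, ran from 149.5 in the CDK4 well to 253 in the CDK9 well with a median of 193.4, against a median of 177.3 in the other wells. Its log2 difference was 0.16 (SE 0.084, edgeR adjusted p = 0.296). The controls gave 184.8 and 229, whereas the 2 SW39 lanes gave 2637 and 2989, over 10-fold above every CDK and CKS well. The row named for DNMT1, the maintenance methyltransferase, was not above background. Its normalized counts were 10.8 to 27.2 and its log2 difference −0.0014 (SE 0.12). Whether it measures that transcript was not tested. Of these 3 rows, 0 were called in either direction, and their median log2 difference was 0.16 against −0.10 over all rows. UHRF1 and DNMT1 are outside the tissue-restricted set, so the limit on row names given above holds for them.

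PPM1D, a phosphatase that p53 induces and that dampens p53 signalling, was 105.1 in the CDK4 well at the lowest and 206 in the CDK9 well at the highest, with a median of 182.1. The median of the other wells was 147.6, and the log2 difference was 0.17 (SE 0.11, edgeR adjusted p = 0.454). The controls, at 172.1 and 215, were at the level of most CDK and CKS wells. PPM1D is outside the tissue-restricted set, so the limit on row names given above holds for it too.

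Among the other rows above background, MyrFlag gave a log2 difference of 0.16 (SE 0.059) and Tet1, a 5-methylcytosine oxidase, one of 0.20 (SE 0.085), both with an edgeR adjusted p of 0.218. Tet1 was 231 in the PCTK3 well, 394 at the median and 474 in the CDK9 well, against a median of 341 in the others. The IMR90 controls gave 363 and 379 in this row and the SW39 lanes 3131 and 3519. Tet2 and Tet3, of the same enzyme family, gave −0.012 (SE 0.056) and −0.06 (SE 0.043). Of the 8 rows named for DNA methylation enzymes and methyl-CpG binders, 0 were called, and their median log2 difference was −0.0067. All 8 are outside the tissue-restricted set, so the limit on row names given above holds for them.

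The 3 rows above background with an unadjusted p under 0.05 (MyrFlag, Tet1 and UHRF1) were higher in the CDK and CKS wells, and the 6 rows lower at that level were all at background. All 9 lay closer to 0 once blocks of 12 consecutive sample numbers were added to the model: UHRF1 then stood at 0.06 (SE 0.055), Tet1 at 0.08 (SE 0.075) and MyrFlag at 0.06 (SE 0.046). No row then had an unadjusted p under 0.05 by edgeR, 0 were called, and the smallest adjusted p was 0.993.

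**Figure D2:**
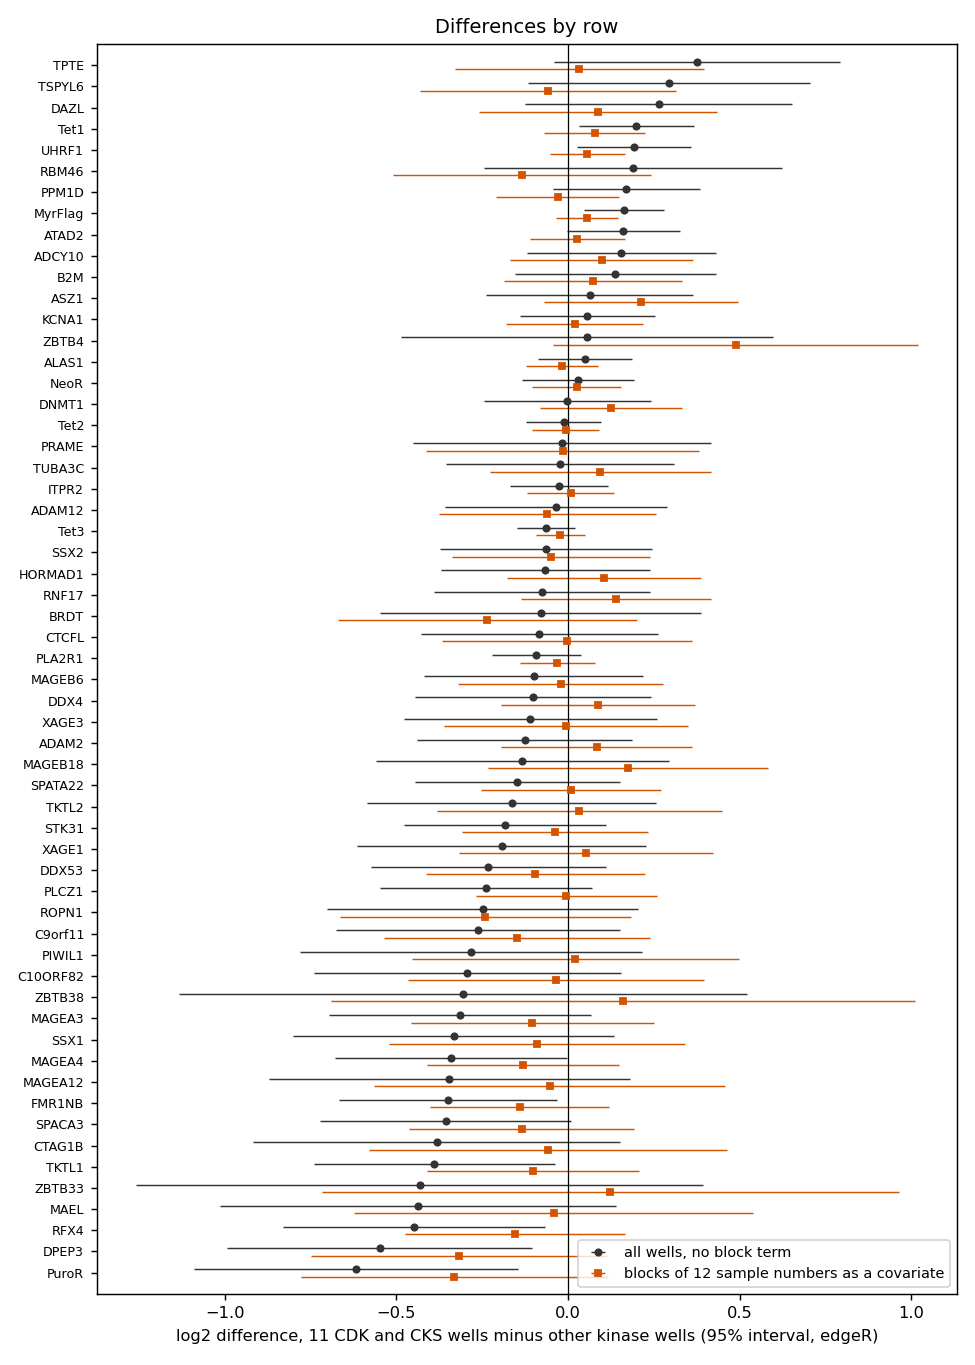
Log2 difference of each of the 58 rows between the 11 CDK and CKS wells and the other kinase wells (horizontal), with 95% intervals from edgeR, without (black circles) and with (orange squares) blocks of 12 sample numbers as a covariate. The differences run from −0.62 to 0.38 without blocks, and the 9 rows with an unadjusted p under 0.05 all move towards 0 with them.

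Background counts differed between blocks of sample numbers. CDK9, CKS2 and CKS1B have numbers between 25 and 36, and in that block the 8 negative probes averaged 20.7 normalized counts at the median, against 6.69 to 10.4 in the other 16 blocks. The 3 wells gave 19.2, 21.2 and 20.5, and the other 8 CDK and CKS wells gave 5.52 to 12.5. Over all 11 wells the negative controls were higher than in the other wells by 0.28 on the log2 scale (permutation test, two-sided p = 0.0264, adjusted p = 0.158 over 6 lane measures), and within blocks the difference was −0.07 (permutation p = 0.438). Relative to the positive controls, the normalizers PGK1, TBP and TUBB2A differed by −0.08, −0.12 and −0.14 (permutation p = 0.355, 0.105 and 0.0827, adjusted p = 0.445, 0.209 and 0.209), and by under 0.03 within blocks. Leaving out that block left 0 rows called and 2 with an unadjusted p under 0.05 by edgeR. Its part in the values of rows at background was not tested otherwise.

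**Figure D3:**
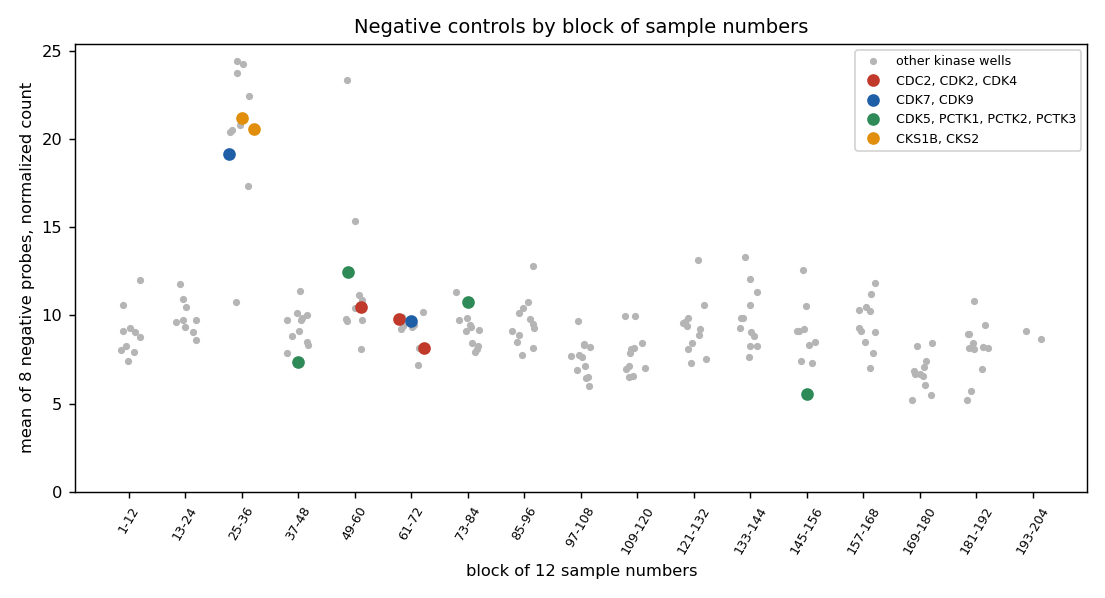
Mean normalized count of the 8 negative-control probes per lane (vertical) by block of 12 consecutive sample numbers (horizontal); grey points are other kinase wells and coloured points the 11 CDK and CKS wells. CDK9, CKS2 and CKS1B, in the block from 25 to 36, sit at 19.2 to 21.2, and the remaining 8 wells sit at 5.52 to 12.5.

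The tissue-restricted genes, mostly expressed in testis, were the reason for the screen. By edgeR 0 of the 42 were called between the CDK and CKS wells and the others. ADAM12, a membrane metalloprotease of regenerating muscle and tumours, had normalized counts of 29.99 in the CDK5 well, 47.4 at the median and 62.6 in the PCTK1 well. The controls gave 35.01 and 46.8. The other wells had a median of 44.8, a 90th percentile of 62.9 and a maximum of 504. Among them is MAP3K7, the kinase for which the paper reports strong induction of ADAM12. The log2 difference was −0.03 (SE 0.16, edgeR adjusted p = 0.921). The part of the MAP3K7 well in this difference and its SE was not tested. ALAS1, the first enzyme of haem synthesis, ran from 400 to 589 and differed by 0.05 (SE 0.069). PLCZ1, a sperm phospholipase, ran from 10.8 to 44.4 and differed by −0.24 (SE 0.16).

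The remaining 38 tissue-restricted rows had medians at background, and a value there is bounded by the lane's negative controls. MAGEA3, a tumour antigen of the MAGE family, was 4.8 to 11.7 in the 11 wells and 1011 to 1227 in the mixed RNA. PRAME, another tumour antigen, was 1.9 to 14.7 in the wells and 2108 to 3212 in the mixed RNA. CTCFL, the germline relative of CTCF, was 3.6 to 12.4 in the wells and 119.4 to 173.3 in the mixed RNA. These 3, chosen after their values were seen, were read far higher in the mixed RNA than in any CDK or CKS well. The 5 MAGE rows had a median log2 difference of −0.31, the 7 other cancer/testis antigens −0.19, the 6 germ cell RNA and piRNA genes −0.09, the 6 germline chromatin and meiosis genes −0.08, the 7 sperm genes −0.25 and the 5 enzymes 0.05. With blocks in the model the same medians were −0.05, −0.05, 0.09, −0.03, −0.04 and −0.02, and 0 rows of any list were called either way.

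Cell-cycle and transcriptional kinases were contrasted next, 3 wells against 2, with the spread taken from all kinase wells. edgeR called 0 of 58 rows (0%), with 0 at an unadjusted p under 0.05 and a smallest adjusted p of 0.931, and DESeq2 with the same housekeeping factors gave the same 2 counts. The contrast is coarse: the 95% interval lay within 2-fold in 14 of 58 rows, and within 1.5-fold in 7 of the 17 rows above background. An exact permutation test over the 10 ways to divide 5 wells cannot go below p = 0.1. In the row named ZBTB33, which had the tag's pattern, CDK7 was at 441 and CDC2 at 1615. The median of the other kinase wells was 22591. Whether these cDNAs were expressed less than the others was not tested.

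UHRF1 stood at 1030, 832 and 839 in the CDK2, CDC2 and CDK4 wells and at 1049 and 1015 in the CDK7 and CDK9 wells. CDK2 lay between the 2 transcriptional kinases and CDC2 and CDK4 below both, and the log2 difference was −0.20 (95% interval −0.69 to 0.30). ATAD2 was 204, 188.4 and 149.5 against 193.4 and 253, which also overlap, with a log2 difference of −0.29 (95% interval −0.78 to 0.19), and one of −0.09 without CDK9 and −0.47 without CDK7. The 3 replication rows had a median log2 difference of −0.20 and the 8 rows for DNA methylation and methyl-CpG binding −0.02, against −0.08 over all rows, and 0 were called. With blocks in the model the same medians were −0.11, 0.05 and 0.09, and 39 of 58 rows were higher with the cell-cycle kinases, beside 24 without blocks.

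In 4 of 58 rows the 3 wells and the 2 wells did not overlap, and of these ADAM12 and ALAS1 were above background. Of the 10 ways to divide 5 wells, 2 leave no overlap in any row without ties. ADAM12 was 47.4, 40.2 and 39.7 in the CDK2, CDC2 and CDK4 wells and 49.1 and 58.3 in the CDK7 and CDK9 wells, and the log2 difference was −0.34 (SE 0.48, edgeR adjusted p = 0.931). ALAS1 was 540.5, 448 and 499.9 against 543 and 559, and differed by −0.15 (SE 0.20). Both differences were smaller than their standard errors. The other 2 rows, DPEP3 and TUBA3C, were at background and higher with the cell-cycle kinases.

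Among rows above background, the largest differences of this contrast were in rows where single wells stood out. ZBTB38 gave 1.07 (SE 1.2) and ZBTB33 gave 0.98 (SE 1.2) on the log2 scale, and each turned on the transcriptional wells: ZBTB33 gave 0.0042 without CDK7 and 5.77 without CDK9. Without the CDK9 well 2 rows had an unadjusted p under 0.05 by edgeR, 0 were called, and the median over all rows went from −0.08 to 0.35. B2M, the light chain of class I histocompatibility molecules, gave 0.57 (SE 0.45), and 0.07 without the CDK4 well. Within the block from 61 to 72, which holds CDK2, CDK4 and CDK7, ZBTB33 stood at 35633 and 34979 against 441 and B2M at 42683 and 95391 against 43093.

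Asked whether the 4 groups differed among themselves, edgeR called 0 of 58 rows (0%), with 1 row under an unadjusted p of 0.05. That row was TSPYL6, a testis gene of the nucleosome assembly family (unadjusted p = 0.0112, adjusted p = 0.651). Its normalized counts were 22.8 and 17.2 in the CKS2 and CKS1B wells and 19.4 in the CDK9 well. They were 13.2, 11.7 and 6.4 in the CDK2, CDK4 and CDC2 wells and 5.7 in the CDK7 well. PCTK3, PCTK1, PCTK2 and CDK5 gave 9.7, 8.7, 2.3 and 0. The 3 high wells are those of the block with high negative controls. DESeq2 with its own factors called this row (adjusted p = 0.0422), as did limma with a pseudocount of 1 (adjusted p = 0.0471). With blocks in the edgeR model its unadjusted p was 0.458 (adjusted p = 0.987), and the only row then under 0.05 unadjusted was ZBTB4 (p = 0.0134, adjusted p = 0.780).

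Single wells were also set against the others by a Z-score, the distance of log2(normalized count + 1) from the mean of the other wells in SD. This is a description, as each kinase has 1 lane. Of 638 pairs of a CDK or CKS well and a row, 2 lay more than 2.5 SD above the mean (0.313%), beside 0.361% of 9976 pairs in the other wells. Another 10 lay more than 2.5 SD below (1.57%), beside 0.812% in the other wells. CDK9, CKS1B, CKS2, PCTK1 and CDC2 had no pair beyond either limit.

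The high pairs were B2M in the CDK4 well (Z = 2.68) and ZBTB4 in the PCTK3 well (Z = 2.58). With 4 housekeeping genes, which makes B2M a normalizer, 0 high pairs were left, and on the authors' normalized values 1 was left, not in a row above background. The row named for ZBTB4, a further methyl-CpG binder, gave 53 raw counts in the PCTK3 well. That lane's negative-control level was 19.8, and the normalized count was 46.6. Only the PIK4CA well was higher, at 47.1. The controls gave 14.6 and 24.4, and the other 10 CDK and CKS wells ran from 2.4 to 18.2. The row as a whole was not above background.

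Of the low pairs, 3 were in rows above background. They were ZBTB33 (Z = −3.39) and ZBTB38 (Z = −3.22) in the CDK7 well, described above, and PLCZ1 in the CDK5 well (Z = −2.67), the lowest of all kinase wells at 10.8 from 9 raw counts, which is also under that lane's negative-control level of 12.9. The other 7 came from rows at background: TSPYL6, BRDT and XAGE3 in the CDK5 well, BRDT in the CDK4 well, ROPN1 in the PCTK2 well, MAGEA4 in the CDK2 well and PRAME in the CDK7 well. Their raw counts were 0 to 4, below the lane's negative-control level in each case. A count of 0 allows up to 3 counts, and at such counts a lower level of a transcript was not detectable. CDK5 had 4 of the 10 low pairs, and its negative probes averaged 7.35 normalized counts, less than in every other CDK or CKS well except PCTK2 at 5.52. The part of this lane background in the low pairs was not tested.

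**Figure D4:**
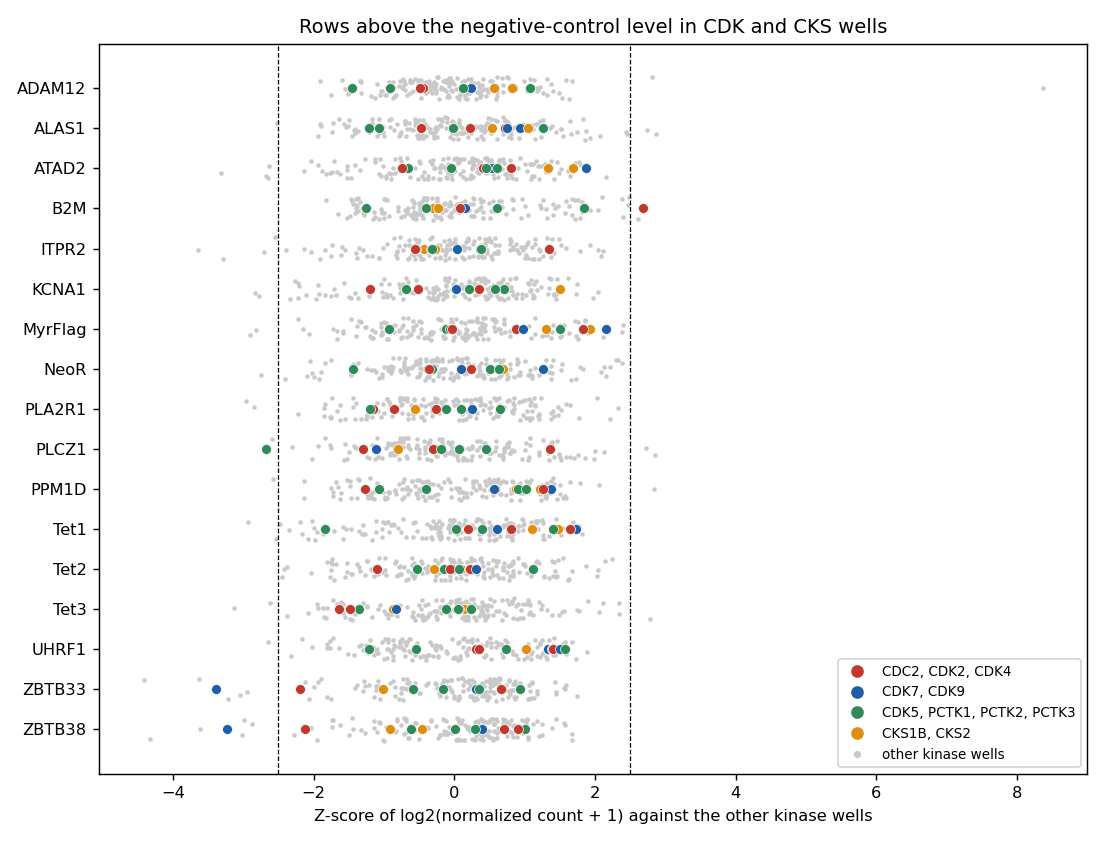
Z-score of each kinase well (horizontal, in SD of the other kinase wells) in the 17 rows above background; grey points are the other kinase wells, coloured points the 11 CDK and CKS wells, and dashed lines mark 2.5 SD. The CDK and CKS points beyond the dashed lines are B2M in CDK4 at 2.68, PLCZ1 in CDK5 at −2.67 and ZBTB33 and ZBTB38 in CDK7 at −3.39 and −3.22, the last pair among grey points of other low wells.

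B2M was at 95391 in the CDK4 well, the highest of all kinase wells and above the AXL well at 93480. CDK2 and CDC2, the other cell-cycle kinases, gave 42683 and 42129, CDK7 and CDK9 gave 43093 and 37710, and the controls gave 34514 and 42381. PCTK3 was the next of the family at 73190, and PCTK2 the lowest at 27619. The 8 other wells with numbers from 61 to 72 ran from 39509 to 63894, so CDK4 stood apart from its neighbours too. PCTK3, in contrast, lay inside its own block, where 3 of 11 other wells were higher.

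The CDK4 lane was the weakest of the 11. It had 103796 counts in all, a geometric mean of 762 over the 6 positive controls against a median of 2375 for the 11 lanes, and the largest scaling factor, 2.34. Its raw B2M count was 40839, less than in 7 of the other 10 lanes. Scaled by the positive controls only, the same well was at 96368, now the 7th highest, and no B2M pair passed 2.5 SD. For the family as a whole the B2M log2 difference was 0.14 (SE 0.15, edgeR adjusted p = 0.623) and −0.01 without CDK4.

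**Figure D5:**
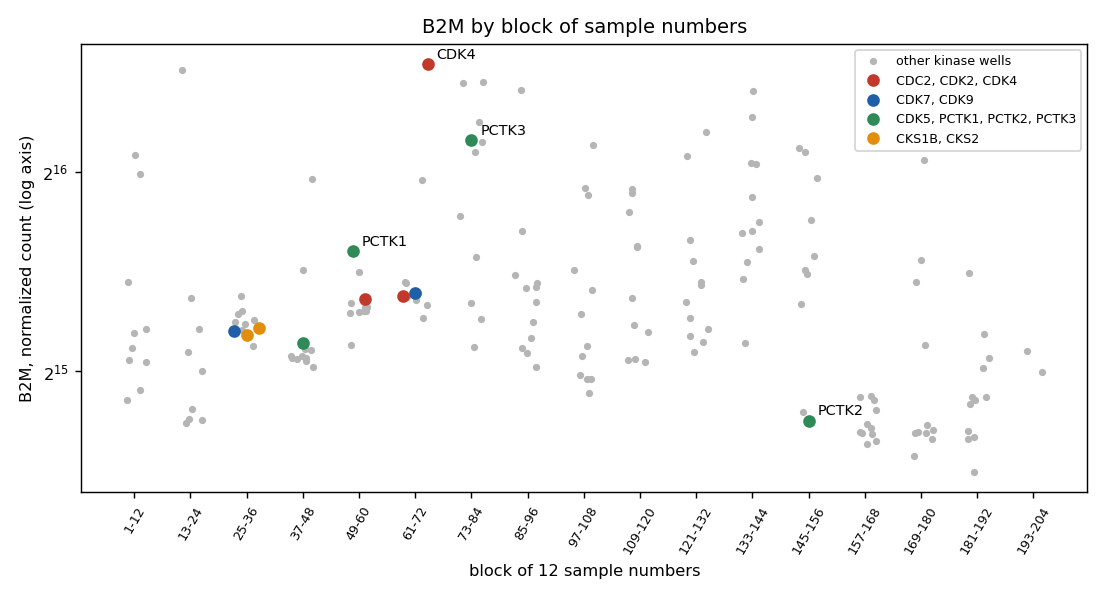
Normalized B2M count per well (vertical, log axis with base 2) by block of 12 consecutive sample numbers (horizontal); grey points are other kinase wells and coloured points the CDK and CKS wells. CDK4 is the highest point at 95391, above its block's other wells at 39509 to 63894, while PCTK3 at 73190 lies among its neighbours.

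Whole profiles were compared by the root mean square of log2 differences over 15 rows above background, leaving out ZBTB33 and ZBTB38, a measure chosen after the values were seen. The closest pair was CDK9 and CKS1B at 0.0951, then CDK2 and CDK7 at 0.101 and CKS2 and CKS1B at 0.159. Each of these pairs shares a block of sample numbers, and only the last joins wells of like function. CDK9 and CDK7, both transcriptional, were 0.238 apart, and CDK2 and CDK4, both cell-cycle and in 1 block, 0.553 apart.

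Pairs of CDK and CKS wells from the same block had a median distance of 0.185 (7 pairs) and those from different blocks 0.355 (48 pairs). Among the other wells the medians were 0.277 and 0.385. The nearest of all kinase wells came from the same block for 7 of the 11 wells and was itself a CDK or CKS well for 3 of them. CDK4 was far from every relative, at 0.332 from PCTK3 and farther from the rest, and CDK5 was at least 0.354 from each of the others. The CDK4 lane was also the weakest of the 11, and the part of its low counts in these distances was not tested.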

How the data were processed

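RNA of infected IMR90 cells was counted on the Nanostring nCounter. For every lane the raw probe counts were deposited without normalization. The authors also deposited 1 table over all lanes, with the signal left after their normalization to positive controls and to PGK1, TBP and TUBB2A. The lanes number 197, of which 183 were compared, 11 with a CDK or CKS cDNA and 172 with another cDNA of the kinase collection. Genome alignment does not apply. Here counts were scaled with the positive controls and then with the geometric mean of these 3 genes. The first step cancels out in the second, so depth and RNA input are set by 3 transcripts, and any response of these to a kinase shifts every row.

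Groups came from the titles. The 57 endogenous rows and B2M were tested in R 4.3.3 with edgeR 4.0.16 (quasi-likelihood, no filter, Benjamini-Hochberg over 58 rows, threshold 0.05). DESeq2 1.42.0 and limma 3.58.1 served as alternative tests. Python 3.11.15 with numpy 2.4.6 and pandas 2.3.3 gave the remaining values, with 100000 resamples for permutation tests. Scripts were tested on simulated data. A pseudocount of 1 preceded log2. Sample numbers in the titles were cut into blocks of 12. No source used here says what the numbers stand for.

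Named rows were ADAM12, ALAS1, ATAD2, B2M, MyrFlag, ZBTB33, DNMT1 and UHRF1, any row past the threshold, the 5 largest differences among rows above background and every pair beyond 2.5 SD. PPM1D came from a list of its own. Rows outside this rule (Tet2, Tet3, MAGEA3, CTCFL, DPEP3, TUBA3C and those of the closing section) were picked with their values in view. The members and lists were chosen with earlier results of these data known. Wells are single infections, so p-values measure the spread between wells. Total counts of 103796 to 295871 per lane limit the weak rows. No 2 kinase lanes held identical counts.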

Additional observations from a re-analysis of the deposited data

Results flagged for a closer look

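PRAME, a tumour antigen, was at 14.7 normalized counts in the PCTK2 well, apart from the other 3 wells of the CDK5 and PCTK group, where CDK5, PCTK1 and PCTK3 gave 4.8, 5.8 and 5.3. The gap exceeded Dixon's 95% limit for 4 wells. The PCTK2 value came from 13 raw counts (95% Poisson interval 6.9 to 22.2) against a lane negative-control level of 11.9, in a row at background. The 4 wells carry different cDNAs and are not replicates of a condition. PRAME was the only row of 18 examined in this group to exceed that limit, and chance alone marks about 1 group in 20.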

How the results depend on the processing

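Across the alternatives, 0 rows were called between the CDK and CKS wells and the others, and 0 between cell-cycle and transcriptional kinases. Rows with an unadjusted p under 0.05 numbered 0 to 16 and 0 to 2. The smallest adjusted p of the first comparison fell to 0.057, with edgeR when PGK1 was not a normalizer. Scaling moved the median of all rows in the first comparison, from −0.10 to 0.00076 with DESeq2's own factors and −0.22 with positive controls only. Among the 4 groups, 1 row was called with DESeq2's own factors and 1 with limma at a pseudocount of 1 (TSPYL6 in each), and 41 with limma after a floor at each lane's negative-control level. That floor stood at 42.3 to 47.3 normalized counts in the CDK9, CKS2 and CKS1B wells and 13.5 to 24.6 in the others, by its construction. Without the block from 25 to 36, an alternative chosen after seeing the data, the floor gave 0. Leaving out each well of a comparison in turn (the 5 cell-cycle and transcriptional wells in the second, all 11 in the others) gave 0 calls.

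Pairs beyond 2.5 SD made up 1.88% of all pairs, and 18.03% with the floor (98.2% of the high ones in the CDK9, CKS2 and CKS1B wells), 0.94% with a pseudocount of 10 and 7.05% with the mean and SD of 8 to 11 wells of the same block. The cause was not tested for the last 2. Within blocks the negative controls, PGK1, TBP and TUBB2A gave differences of −0.071, 0.026, 0.0051 and 0.0022.

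Of 574 recomputed values of named rows, 527 kept direction and side of the threshold and 47 changed sign, all without passing the threshold. The cause was not tested. In the first comparison ADAM12 gave 0.066 and 0.15 with DESeq2 (housekeeping and own factors), 0.0173, 0.013 and 0.016 with limma (pseudocounts 1 and 10, floor), 0.014 against wells of the same blocks, 0.032 on the authors' table and 0.0173 by permutation. ALAS1 gave −0.075 with positive controls only and −0.0175 and −0.0181 with blocks (all rows, rows above background). ZBTB33 gave 0.12 in both of these and ZBTB38 0.16, and ZBTB38 0.0199 against wells of the same blocks. DNMT1 gave 0.0033 and 0.075 with DESeq2, 0.021 with TMM, 0.0057 without PGK1, 0.0072, 0.0028 and 0.18 with limma, 0.13 with blocks, 0.13 against wells of the same blocks, 0.037 without the block from 25 to 36, 0.0197 on the authors' table and 0.0072 by permutation. In the second comparison MyrFlag gave 0.0029 with blocks in both versions, DNMT1 −0.0036 with DESeq2, −0.066 with 4 housekeeping genes, −0.016 without TUBB2A and −0.43 with the floor, and PLCZ1 −0.0197 with the floor. Leaving out single wells, ADAM12 ran from −0.082 to 0.016, B2M from −0.015 to 0.20, ZBTB33 from −0.67 to −0.30, ZBTB38 from −0.54 to −0.17 and DNMT1 from −0.088 to 0.045 in the first comparison, and ATAD2 from −0.47 to −0.09, DNMT1 from −0.11 to 0.22 and PLCZ1 from −0.050 to 0.56 in the second.

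No paired analysis was possible because no sample number is shared between the kinase wells compared. Depth limits the 41 rows at background, where single counts decide a value.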

Other observations

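Further rows above background had these levels across the CDK and CKS wells. Tet3 ran from 1647 in the CDK2 well to 1929 in the PCTK2 well, and the controls gave 1911 and 1971. ITPR2, a calcium channel of the endoplasmic reticulum that inositol trisphosphate opens, ran from 602 to 829.2, the highest in the CDK4 well, and the controls gave 647 and 712. PLA2R1, a receptor for secreted phospholipases, ran from 429.5 to 566, highest in the CDK5 well. KCNA1, a voltage-gated potassium channel, ran from 39.7 in the CDK4 well to 75.03 in the CKS2 well, around the controls at 59.3 and 62.1. NeoR, named for a resistance gene, was 138.8 to 232 and the controls gave 177.03 and 182.8. All of these rows are outside the tissue-restricted set, and whether their names match their probes was not tested.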
